A study of Schizosaccharomyces pombe with 4 samples.

Results

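The nuclear tRNA-Cys and tRNA-Trp genes of the fission yeast Schizosaccharomyces pombe are 6 genes, 3 of each isotype, among 171 nuclear tRNA genes and 7049 genes in the deposited count table. Membership followed from the systematic names, and these isotypes were chosen by their delta4dus and wild-type counts: their isotype sums were among the largest differences between the strains in earlier results of these data. Every difference between the strains given here for the 6 genes or their sums is therefore a description, with no test. Both strains were grown in YES, a rich medium, at 32 °C. RNA was depleted of ribosomal RNA and sequenced with strand kept. Per the series' design text, the delta4dus strain has all 4 dus genes deleted; reads remained at each of them. Each strain has 2 libraries, and the labels do not say whether they came from separate cultures, so the spread between them may be technical.

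Transfer RNA-Cys carries cysteine to the ribosome and tRNA-Trp carries tryptophan, each recognised by its own aminoacyl-tRNA ligase. RNA polymerase III transcribes tRNA genes from promoter elements inside the gene and stops at a run of T on the coding strand shortly after it. The transcript is then trimmed at both ends and modified. The dus genes encode dihydrouridine synthases, which reduce uridines to dihydrouridine. In budding yeast these uridines lie in the D loop and in the variable loop of tRNAs. A read count at a tRNA gene does not tell mature tRNA from precursors or fragments, and counts from a bulk culture do not tell more RNA per cell from more cells that make it.

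The 6 genes have 3 distinct sequences, shown here because they set which genes the reads can be told apart at. They were read from RefSeq (ASM294v3), 5′ to 3′ on the coding strand, with the D loop (first run) and the anticodon (second run) in capitals. The deposited counts use ASM294v2, and all 171 nuclear tRNA genes have the same coordinates and strand in both annotations. SPATRNACYS.01 lies at I:1421149-1421221 (plus strand), SPATRNACYS.02 at I:2510538-2510610 (plus strand) and SPATRNACYS.03 at I:3700665-3700737 (plus strand). SPATRNATRP.01 lies at I:3559754-3559826 (minus strand), SPBTRNATRP.02 at II:717076-717148 (plus strand) and SPBTRNATRP.03 at II:1774860-1774932 (plus strand). Each is annotated as a single stretch of 73 bases, and none overlaps another annotated gene.
SPATRNACYS.01 and SPATRNACYS.03: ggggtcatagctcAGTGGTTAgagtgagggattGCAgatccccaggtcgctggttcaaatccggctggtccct
SPATRNACYS.02: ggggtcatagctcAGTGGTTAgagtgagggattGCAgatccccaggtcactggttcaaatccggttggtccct
SPATRNATRP.01, SPBTRNATRP.02 and SPBTRNATRP.03: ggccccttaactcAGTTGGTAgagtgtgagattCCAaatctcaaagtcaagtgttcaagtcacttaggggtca

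The anticodons are GCA for cysteine and CCA for tryptophan. In all 6 genes, 3 of the 8 bases of the D loop and 1 of the 5 bases of the variable loop are T, which are uridines in the RNA; whether they carry dihydrouridine was not measured. The acceptor, D and T stems pair at every position, and the anticodon stem pairs at 5 of 5 positions in tRNA-Trp and 4 of 5 in tRNA-Cys. SPATRNACYS.01 and SPATRNATRP.01 are alike at 45 of 73 positions (61.64%). The 3 tRNA-Trp genes are identical over their length, as are SPATRNACYS.01 and SPATRNACYS.03. SPATRNACYS.02 is 97.26% identical to them and differs by G49A and C65T, counted from the 5′ end with the SPATRNACYS.01 base first. These positions form the outer pair of the T stem, where the 3 tRNA-Trp genes also have A and T. For the Cys genes it is shown in capitals at the ends of the 17 bases from position 49 to 65.
T arm of SPATRNACYS.01 and SPATRNACYS.03: GctggttcaaatccggC
T arm of SPATRNACYS.02: ActggttcaaatccggT

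The T arm also holds the B box, the inner promoter element bound by the polymerase III factor TFIIIC. The letters GTTCNANNC, searched on the sense strand, occur in 6 of 6 of these genes and in 156 of 171 nuclear tRNA genes (91.23%). Within that stretch all 6 read GTTCAA, a form found in 26 of 171 nuclear tRNA genes (15.2%). GTTCGA, the form in 131 of 171 (76.61%), occurs in none of the 6. Both searches describe letters only. The genes differ outside the annotated tRNA, so the 20 bases that follow each gene are shown, with the longest run of T in capitals.
After SPATRNACYS.01: tatgTTTTTTaaaaatttat
After SPATRNACYS.02: tgTTTTTTTcttatagaaat
After SPATRNACYS.03: ttaTTTTTacattatcctag
After SPATRNATRP.01: taTTTTTTTTaaaatgtcga
After SPBTRNATRP.02: TTTTTTTaaaatcaagaaac
After SPBTRNATRP.03: taTTTTTTataagtttttat
The longest run has 6, 7 and 5 T after the Cys genes in the order of their numbers, and 8, 7 and 6 T after the Trp genes. A run of at least TTTT, searched on the sense strand, follows 160 of 171 nuclear tRNA genes within 20 bases (93.57%).

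All counts of these genes were small, so counting error is given first. The lowest count was 17 reads, at SPATRNATRP.01 in wild-type library 2, with an exact Poisson 95% interval of 9.9 to 27.2, and the highest was 376 reads, at SPATRNACYS.02 in delta4dus library 1, with an interval of 339.0 to 416.0. These intervals cover counting error only. Together the 6 genes took 970 and 841 counts in the delta4dus libraries and 282 and 217 in the wild-type libraries. Of the counts outside ribosomal RNA this was, in CPM, 16.36 and 18.22 in delta4dus, against 6.358 and 5.397 in wild-type.

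Reads at all 3 tRNA-Cys genes were higher in both delta4dus libraries than in either wild-type library. Normalised read counts, which are counts divided by the TMM-scaled relative library size, are used from here. SPATRNACYS.01 had 153.8 and 212.4 normalised counts in delta4dus, against 74.8 and 63.6 in wild-type. SPATRNACYS.03, of the same sequence, had 137.0 and 197.9 in delta4dus, against 59.4 and 56.2 in wild-type. At both genes delta4dus library 2 was the higher of its strain, and the wild-type libraries lay closer to each other than the delta4dus libraries did. The log2 fold change, delta4dus over wild-type, was 1.39 (SE 0.252) for SPATRNACYS.01 and 1.52 (SE 0.265) for SPATRNACYS.03.

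SPATRNACYS.02 stood apart from the other Cys genes in delta4dus but not in wild-type. It had 287.7 and 284.7 normalised counts in delta4dus, against 69.7 and 67.2 in wild-type. Unlike the other 5 genes, it was nearly level between the delta4dus libraries. Its log2 fold change was 2.06 (SE 0.177), a 4.18-fold ratio of means, and ranked 3rd of 171 nuclear tRNA genes. The 2 above it, SPCTRNAVAL.11 (2.23, SE 1.32) and SPATRNAVAL.02 (2.13, SE 1.21), overlapped between the strains.

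**Figure D1:**
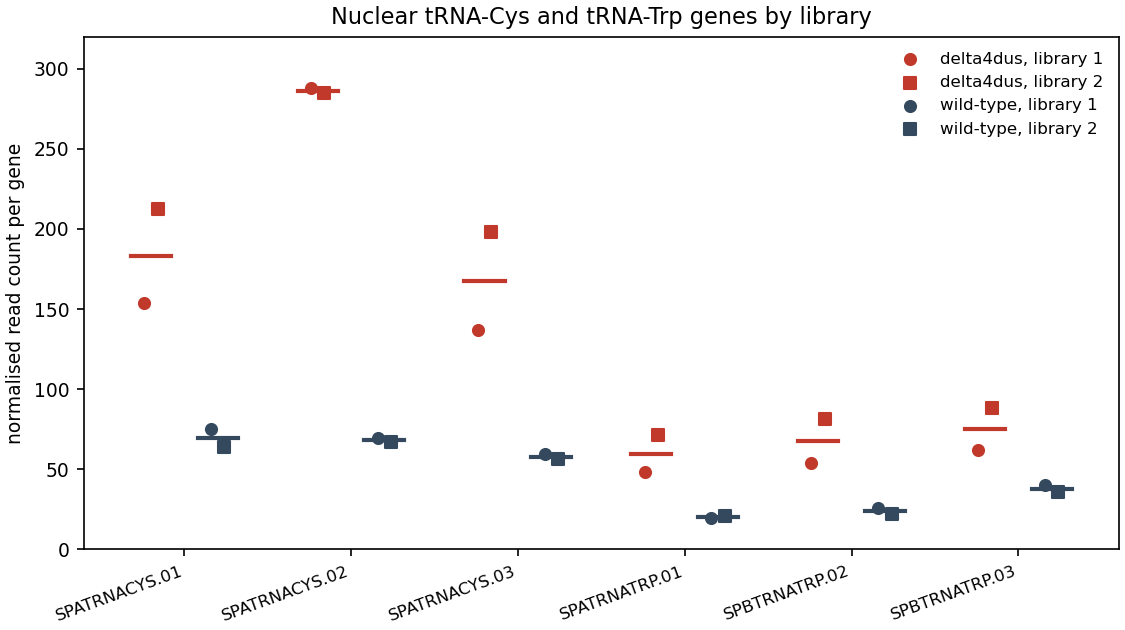
Normalised read count (vertical axis) of each nuclear tRNA-Cys and tRNA-Trp gene (horizontal axis) in the 4 libraries; points are libraries and bars are means of 2. The delta4dus libraries lie above the wild-type libraries at each gene, and SPATRNACYS.02 reaches 287.7 and 284.7 in delta4dus.

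The tRNA-Trp genes had fewer reads, and both delta4dus libraries again lay above both wild-type libraries at each. SPATRNATRP.01 had 48.2 and 71.2 normalised counts in delta4dus, against 19.5 and 20.8 in wild-type (log2 fold change 1.55, SE 0.345). SPBTRNATRP.02 had 53.6 and 81.2 in delta4dus, against 25.6 and 22.0 in wild-type (1.48, SE 0.344). These 2 identical genes lay close to each other in every library. SPBTRNATRP.03 had 62.0 and 87.9 in delta4dus, against 40.0 and 35.5 in wild-type, and the smallest log2 fold change of the 6 genes (0.98, SE 0.301).

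Summed by isotype, tRNA-Cys had 578.4 and 695.0 normalised counts in delta4dus, against 203.9 and 187.1 in wild-type. The means were 636.7 ± 82.44 in delta4dus and 195.5 ± 11.93 in wild-type (SD, n = 2 libraries each), and the log2 fold change of 1.70 (SE 0.15) was the highest of the 20 nuclear isotype sums. The tRNA-Trp sum had 163.7 and 240.2 in delta4dus, against 85.1 and 78.2 in wild-type. Its means were 202.0 ± 54.07 in delta4dus and 81.65 ± 4.813 in wild-type (SD, n = 2 libraries each), and its log2 fold change of 1.30 (SE 0.257) ranked 3rd, after tRNA-Val (1.44, SE 0.511). The sums of 8 of the 20 isotypes did not overlap between the strains, with delta4dus higher, and tRNA-Cys and tRNA-Trp were among them. In the authors' deposited table, from their own fit, the log2 fold changes of single genes were 1.40, 2.06 and 1.53 for the Cys genes in the order of their numbers. For the Trp genes that table gives 1.56, 1.49 and 0.98.

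Calls are counted over all genes tested, and nothing is read from the count of members, since the choice of genes used this contrast. All 6 genes passed the filter on low counts. By the quasi-likelihood test of edgeR with Benjamini-Hochberg adjusted p, 0 of the 6 had an adjusted p under 0.05, where 0.0147% of the 6813 genes tested were called higher and 0.0734% in either direction. At an unadjusted p under 0.05 edgeR had 6 of 6, beside 3.55% of all genes called higher. DESeq2 called 3 of 6, beside 0.406% of its 6890 genes called higher. The authors' deposited table lists 3 of 6 with an adjusted p under 0.05, the 3 Cys genes, beside 0.38% of its genes called higher. The strains did not overlap, with delta4dus higher, at 6 of 6 genes, beside 19.0% of all genes tested and 44 of the 165 other nuclear tRNA genes (26.67%).

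Other nuclear tRNA genes were higher in delta4dus too, by less at most genes. The median log2 fold change was 1.50 over the 6 genes, 0.65 over the other 165 nuclear tRNA genes and 0.00 over all genes tested. Of the other nuclear tRNA genes, 163 of 165 lay above 0, within a range from −1.19 to 2.23, and 31 exceeded SPBTRNATRP.03. Summed, the other nuclear tRNA genes had 196200 and 372500 normalised counts in delta4dus, against 154200 and 215200 in wild-type, so that wild-type library 2 exceeded delta4dus library 1. Normalised counts of 5S ribosomal RNA, another small structured RNA, were 9933000 and 29450000 in delta4dus and 8345000 and 18820000 in wild-type, and overlapped in the same way. What these differences between libraries contribute to the values of the Cys and Trp genes was not tested.

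Against the other nuclear tRNA genes of the same library, both isotypes remained higher in delta4dus. The tRNA-Cys sum came to 2.948 and 1.866 counts per 1000 counts of the other nuclear tRNA genes in delta4dus, against 1.322 and 0.8693 in wild-type, a ratio of means of 2.196. The tRNA-Trp sum came to 0.8345 and 0.6448 in delta4dus, against 0.5516 and 0.3636 in wild-type, a ratio of 1.616. The strains did not overlap in either. For Trp the nearest values rest on 216 counts in delta4dus library 2 and 83 in wild-type library 1. Counting error was not carried into these ratios. The differences on this scale, 1.14 (log2) for Cys and 0.69 for Trp, were smaller than those of the normalised counts. In both strains library 2 had the lower ratio and the more counts from other tRNA genes.

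**Figure D2:**
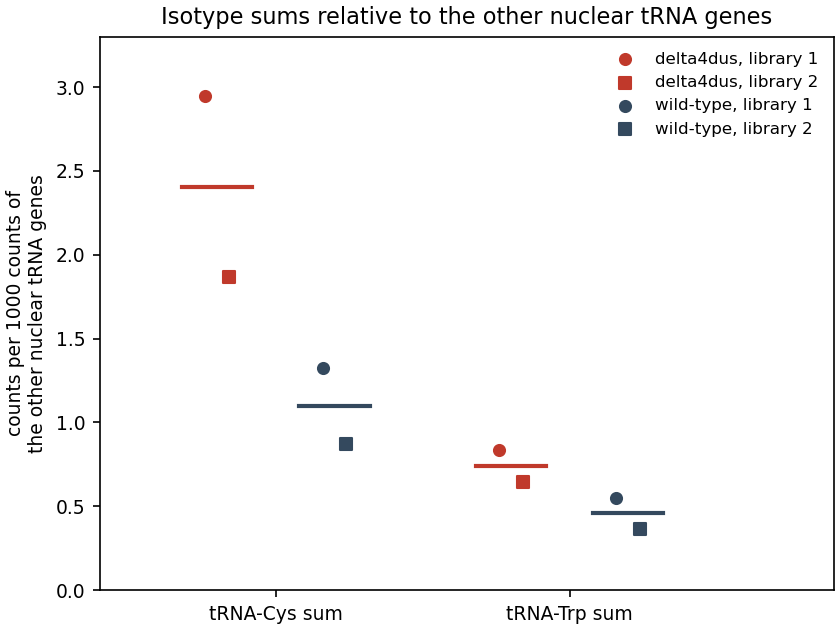
Isotype sums as counts per 1000 counts of the other nuclear tRNA genes (vertical axis) for tRNA-Cys and tRNA-Trp; points are libraries and bars are means of 2. The lowest delta4dus value lies above the highest wild-type value for Cys (1.866 and 1.322) and for Trp (0.6448 and 0.5516). Counting error is not shown.

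The copies were then compared within each library. Ratios between copies need no scaling between libraries, while differences in reads also depend on depth. The counting option for reads that match more than 1 copy is not named in the sources. Such reads were not dropped: the 3 copies of the 28S ribosomal RNA gene differed by 0.01975% to 0.5129% within a library. If a read was counted at each identical copy, the number of distinct reads lies between the largest single copy and the isotype sum. In the 31 groups of identical nuclear tRNA genes, the lowest copy had a median of 0.6093 to 0.693 of the highest copy's count, so identical copies need not have equal counts.

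SPATRNACYS.02 had 1.871 and 1.34 times the count of SPATRNACYS.01 in the delta4dus libraries, against 0.9315 and 1.058 times in the wild-type libraries. The excess was 175 and 65 reads in delta4dus, against −5 and 3 in wild-type. Between the identical genes SPATRNACYS.01 and SPATRNACYS.03 the difference was 22 and 13 reads in delta4dus and 15 and 6 in wild-type. Normalised, the excess was 133.9 and 72.28 in delta4dus, against −5.124 and 3.668 in wild-type. The normalised difference within the identical pair was 16.83 and 14.46 in delta4dus, against 15.37 and 7.336 in wild-type. The excess at SPATRNACYS.02 was thus larger in both delta4dus libraries than in either wild-type library, and larger in delta4dus library 1 than in library 2, while the differences within the identical pair overlapped between the strains.

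The Trp genes were compared in the same way. SPBTRNATRP.03 exceeded SPATRNATRP.01 by 18 and 15 reads in delta4dus and by 20 and 12 in wild-type. In normalised counts the excess was 13.77 and 16.68 in delta4dus and 20.49 and 14.67 in wild-type, which overlap. SPBTRNATRP.03 thus had the higher count in every library, but the exact Poisson intervals of both genes overlapped in each. In delta4dus library 1 they were 64.3 to 100.7 for SPBTRNATRP.03 and 48.4 to 80.6 for SPATRNATRP.01. In wild-type library 1 they were 27.7 to 53.3 and 11.4 to 29.7. These intervals treat the counts as independent, but identical copies may share reads. Overlap of the intervals thus does not measure the error of the difference. Whether the excess goes beyond counting error, or has a similar size in both strains, was not tested. The ratio of SPBTRNATRP.03 to SPATRNATRP.01 was 1.286 and 1.234 in delta4dus, against 2.053 and 1.706 in wild-type. SPBTRNATRP.02 exceeded SPATRNATRP.01 by 7 and 9 reads in delta4dus and by 6 and 1 in wild-type.

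**Figure D3:**
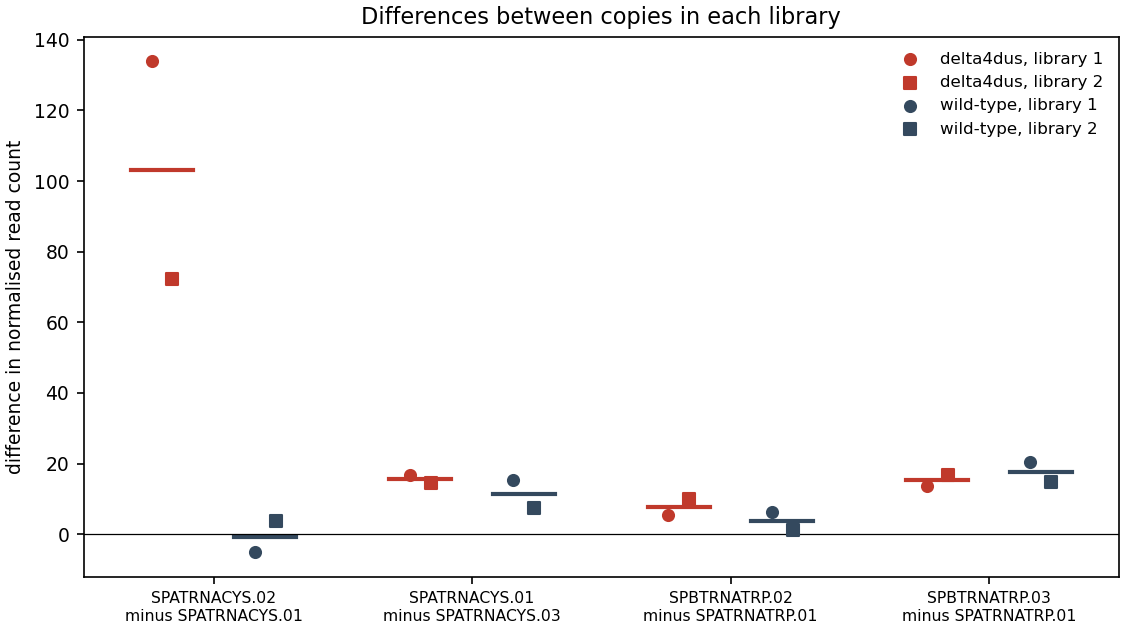
Difference in normalised read count (vertical axis) between 4 pairs of gene copies in each library; points are libraries and bars are means of 2. SPATRNACYS.02 minus SPATRNACYS.01 is 133.9 and 72.28 in delta4dus, against −5.124 and 3.668 in wild-type. SPBTRNATRP.03 minus SPATRNATRP.01 lies between 13.77 and 20.49 in all 4 libraries, and the exact Poisson intervals of their counts overlap in each. Such overlap does not measure the error of the difference, since identical copies may share reads.

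Per gene length, these were the least covered nuclear isotypes in wild-type cells. Levels are given as CPM per kilobase, over counts outside ribosomal RNA, averaged over the genes of an isotype. The tRNA-Trp level was 16.49 and 21.37 in delta4dus and 8.544 and 7.269 in wild-type, the lowest of the 20 isotypes in all 4 libraries. The tRNA-Cys level was 58.24 and 61.82 in delta4dus and 20.49 and 17.38 in wild-type, above Trp by more than the spread between libraries of either strain. Next in wild-type came tRNA-Ala, at 27.47 and 51.47 in delta4dus and 20.86 and 27.11 in wild-type. Cys lay just under Ala in wild-type library 1 (20.49 and 20.86), by less than the spread between the wild-type libraries, and above Ala in both delta4dus libraries. From the lowest, Cys ranked 4th and 3rd in the delta4dus libraries and 2nd in both wild-type libraries.

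Both isotypes also have the fewest genes, 3 each, where other isotypes have up to 13. If reads were counted at each identical copy, the level per gene depends on the number of identical copies. What this contributes to the order of the isotypes was not tested. Of single genes, SPATRNATRP.01 had the lowest wild-type level of all 171, a mean of 16.78 in delta4dus and 5.83 in wild-type. SPBTRNATRP.02 ranked 5th and SPBTRNATRP.03 10th from the lowest in wild-type. The Cys genes ranked 20th (SPATRNACYS.03), 28th (SPATRNACYS.02) and 29th (SPATRNACYS.01). Across all nuclear tRNA genes the median level was 171.0 in delta4dus and 102.4 in wild-type.

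**Figure D4:**
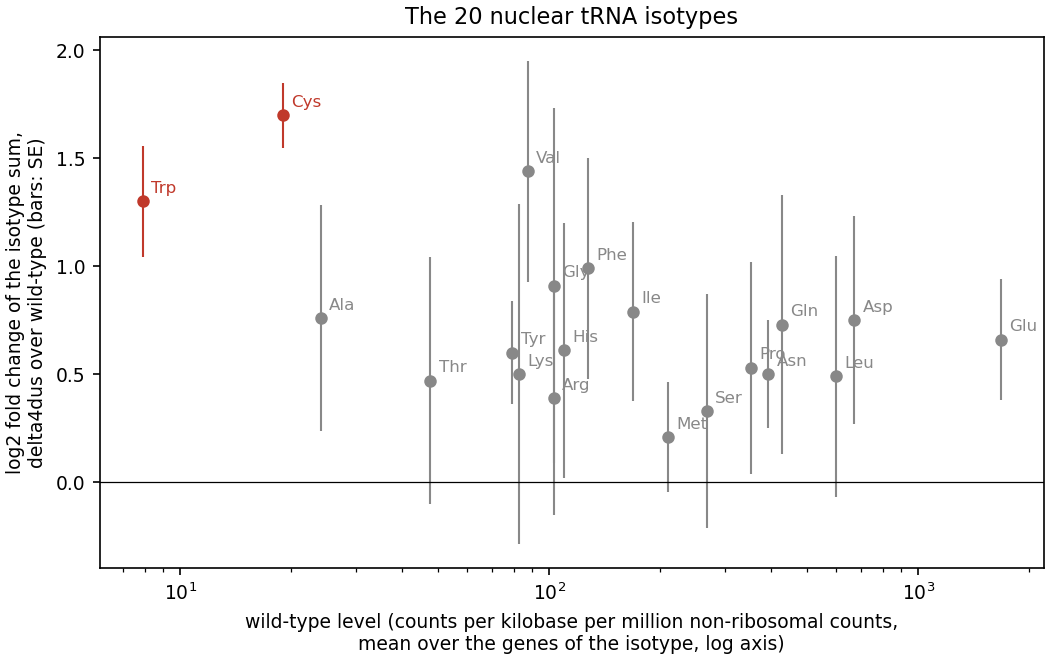
Log2 fold change of each nuclear tRNA isotype sum, delta4dus over wild-type (vertical axis, bars are SE), against the isotype's wild-type level (log axis, CPM per kilobase, over counts outside ribosomal RNA) for 20 isotypes. Cys (1.70) and Trp (1.30) lie at the lowest levels, 18.93 and 7.907, and their SE bars are among the shorter ones.

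The 9 protein-coding genes next to these tRNA genes had log2 fold changes between −0.25 (ceo2) and 0.08 (gly1), and the non-coding RNA gene meu16 had 0.61 (SE 0.344). None of the 11 tested neighbours, each the nearest annotated gene on its side, was called by edgeR (adjusted p 0.643 or above). The nearest were sce3, 236 bases from SPBTRNATRP.03 (log2 fold change 0.01, SE 0.0685), and tif307, 312 bases from its other end (0.00, SE 0.0673); both encode translation initiation factors. Beside SPATRNACYS.02, the chromatin remodelling gene ssr2 had −0.04 (SE 0.0766) and the threonine aldolase gene gly1 had 0.08 (SE 0.0617). The neighbour with the largest value was another tRNA gene, SPATRNAPHE.01, 818 bases from SPATRNACYS.03, at 1.01 (SE 0.353, adjusted p = 0.643, edgeR). SPNCRNA.124 beside SPATRNATRP.01 had 3 and 0 counts in delta4dus and 3 and 0 in wild-type and was not tested.

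The cytosolic and mitochondrial ligase genes for cysteine and tryptophan were near level between the strains. SPAC29E6.06c, which encodes the cysteine ligase Crs1, had 10410 and 10120 normalised counts in delta4dus, against 10380 and 10460 in wild-type (log2 fold change −0.02, SE 0.0501, edgeR adjusted p = 0.94). For wrs1, a tryptophan ligase gene, the values were 9116 and 9572 in delta4dus and 8893 and 9344 in wild-type (0.04, SE 0.0563, edgeR adjusted p = 0.919). For msw1, the other tryptophan ligase gene, the log2 fold change was −0.06 (SE 0.098, edgeR adjusted p = 0.922). The strains overlapped at all 3 genes.

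Mitochondria encode tRNAs of their own for both amino acids, and neither passed the test. SPMITTRNACYS.01 had 602.9 and 423.7 normalised counts in delta4dus, against 498.0 and 529.4 in wild-type (log2 fold change 0.00, SE 0.187, edgeR adjusted p = 0.997). SPMITTRNATRP.01 had 4816 and 3649 in delta4dus, against 3343 and 3379 in wild-type (0.33, SE 0.146, edgeR adjusted p = 0.692). The strains thus overlapped at the mitochondrial Cys gene and did not overlap, with delta4dus higher, at the mitochondrial Trp gene.

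Genes that make and process tRNAs were read from 3 lists. In fits of genotype alone, edgeR and DESeq2 called 0 genes in each. Over all genes, edgeR called 0.0734% of 6813 in either direction and DESeq2 called 52 genes. At such shares lists of this size would mostly hold 0 calls, so nothing about the lists is read from them. At an unadjusted edgeR p under 0.05 the share of all genes was 3.55% in the higher direction alone. Among 22 genes of RNA polymerase III and its factors, 9 lay above 0 and 13 below, with a median log2 fold change of −0.01 and 0 at an unadjusted edgeR p under 0.05. The smallest p there belonged to tbp1, the TATA-binding protein gene (0.11, SE 0.0542), and rpc17, a subunit gene (−0.18, SE 0.0925). Of 35 aminoacyl-tRNA ligase genes, 25 lay above 0 and 10 below (median 0.05), and 1, vrs2 for valine, had an unadjusted p under 0.05 (−0.27, SE 0.0542, edgeR adjusted p = 0.499). Of 17 genes of tRNA trimming, splicing and export, 6 lay above 0 and 11 below (median −0.05), with 0 at an unadjusted edgeR p under 0.05. In that list trl1, which joins tRNA exons after splicing, had −0.11 (SE 0.0511), and trz1, the nuclease that trims the 3′ end, had −0.10 (SE 0.0536). The median over all genes tested was 0.00.

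The genes whose pattern over the 4 libraries was most like these sums were other tRNA genes. Likeness was the root mean square difference of centred log2 normalised counts (pseudocount 0.5) among 5172 genes with a mean of at least 1 CPM. It is a description over 4 libraries that share depth and scaling. Nearest to the tRNA-Cys sum were SPCTRNAVAL.12 (0.411), SPBTRNAVAL.06 (0.428) and SPBTRNAVAL.05 (0.445), then SPBTRNAILE.05 and SPBTRNAGLU.07 (0.461 each). Nearest to the tRNA-Trp sum were SPBTRNAILE.05 (0.241), SPATRNAILE.03 (0.242) and SPBTRNAILE.06 (0.247), then SPATRNAGLU.02 and SPBTRNAGLU.07 (0.264 each). These nearest genes differed less between the strains than the sums did. Their log2 fold changes were 0.83 to 1.02 for the Cys list, against 1.70 for the Cys sum. For the Trp list they were 0.81 to 0.85, against 1.30 for the Trp sum. SPCTRNAVAL.12 had 605.2 and 613.8 normalised counts in delta4dus, against 385.3 and 247.0 in wild-type, and SPBTRNAILE.05 had 644.2 and 948.6 in delta4dus, against 448.8 and 447.5 in wild-type.

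Library totals were 435405178 and 495098038 counts in delta4dus and 289767027 and 264948323 in wild-type, of which ribosomal RNA took 84.69% to 90.68%. Reads that match several ribosomal RNA copies may be counted at each. The totals and the ribosomal share are thus of counts and need not equal those of sequenced reads. TMM factors were 1.094 and 0.662 in delta4dus and 1.227 and 1.125 in wild-type, so delta4dus library 2 stood apart in ribosomal share and scaling. Without it the tRNA-Cys sum had a log2 fold change of 1.56 and the tRNA-Trp sum 1.00. Of the 4 genes named as deleted, dus1, dus2 and dus3 were called lower by edgeR (log2 fold changes −3.86, −2.95 and −1.56), and dus4 was at −1.23 (edgeR adjusted p = 0.626). In normalised counts, dus1 had 135.4 and 185.7 in delta4dus, against 2246 and 2372 in wild-type, and dus2 had 290.7 and 306.9 in delta4dus, against 2384 and 2241 in wild-type. More reads remained at dus3, with 1308 and 1362 in delta4dus, against 3954 and 3930 in wild-type, and at dus4, with 313.7 and 155.7 in delta4dus, against 541.1 and 571.0 in wild-type. Both delta4dus libraries lay below both wild-type libraries at all 4 genes, and the part of each gene that was deleted is not stated in the labels.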

How the data were processed

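The authors deposited raw read counts per gene for 4 libraries, with gene lengths in bases. The submitters' processing notes name Trimmomatic 0.36, TopHat2, featureCounts, DESeq2 and the ASM294v2 build; how multiply mapped reads were counted is not given there. The authors' deposited table of delta4dus against wild-type gives a mean normalised signal per gene, log2 fold changes, a test score and p-values, per the file headers.

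Counts of all genes were fitted with edgeR 4.0.16 in R 4.3.3 after filterByExpr (minimum count 10, minimum total 15), with TMM scaling and a robust quasi-likelihood model of genotype with 2 residual degrees of freedom. Benjamini-Hochberg adjustment ran over 6813 genes. DESeq2 1.42.0 was an alternative. Isotype sums were fitted beside all genes without entering the scaling. Both tools were tested on simulated data. Symbols came from RefSeq ASM294v3, to which 6860 of 7049 genes were matched, some of them without a symbol. The genes named are the 6 members, their nearest neighbours, the cysteine and tryptophan ligases, the mitochondrial tRNA-Cys and tRNA-Trp genes, dus1 to dus4, the 5 genes most like each isotype sum and, per list, up to 4 genes with the smallest p. Members and lists were chosen with earlier results of these data known. Depth of 17 to 376 reads per member and library limits precision, and SD is over 2 libraries per strain. Each edgeR SE is the absolute log2 fold change over the square root of the quasi-likelihood F, with dispersion estimated across genes. No count column was left out.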

Additional observations from a re-analysis of the deposited data

How the results depend on the processing

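All 66 alternative values of single genes stayed above 0, and 8 moved by more than the spread between libraries. Since the genes were chosen on this contrast and the fits share the same libraries, values above 0 are no support for it. The lowest was 0.50 (SE 0.629), at SPBTRNATRP.03 with library totals alone. Library totals alone in place of TMM moved the median of all genes to −0.42 and gave larger SEs. The log2 fold change of the tRNA-Cys sum was then 1.25 (SE 0.53, against 0.15 with TMM). That of the tRNA-Trp sum was 0.81 (SE 0.576, against 0.257 with TMM). With the largest copy in place of the sum, chosen after seeing the data, the log2 fold change was 2.01 for Cys and 0.98 for Trp. Leaving out 1 library at a time gave 1.56 to 1.82 for the Cys sum and 1.00 to 1.55 for the Trp sum, where 1.00 was without delta4dus replicate 2, 0.77 to 1.47 for the log2 ratio of Cys to the other tRNA genes, 0.42 (without wild-type replicate 2) to 1.02 for that of Trp, and 3 to 5 called genes over the genome, where 3 was without wild-type replicate 2. DESeq2 called 52 genes, and 49 without ribosomal RNA genes. With the replicate number as a block (replicate block), edgeR called 825 genes, 3 of them in the pathway lists. Deviations of libraries with one number from their strain means correlated (Pearson 0.6274 over genes), but no label states a pairing and there are only 2 numbers. A filter of 100 counts removed the Trp sum and all single genes, which gave no value. RLE scaling, dropping ribosomal RNA genes and no filter left both sums at 1.70 and 1.30. At 17 to 39 wild-type reads per Trp gene, depth limits these genes most. The causes of these shifts were not tested.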
